A study of Mus musculus with 24 samples.

Results

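Coagulation and complement proteins of the liver were followed as a list of 41 genes, chosen by name and not by any measured value. Of these, 40 had rows in the deposited tables of 14995 genes, and all 40 were among the 13121 genes tested. Klkb1, plasma prekallikrein, was not analysed here. Messenger RNA had been measured in 24 mouse livers with a kit that reads the 3′ ends of transcripts, 20 weeks after surgery. The livers came, 8 a group, from mice with Roux-en-Y gastric bypass (RYGB), mice held to the weight of the RYGB mice by calorie restriction (WM) and mice with a sham operation (Sham). Each liver is 1 library, named by its group and the number in its label. The series title calls the mice obese, and strain, sex, age and diet are not given in the labels. Whether every library is a separate mouse is not stated. The p-values therefore set differences between groups against the spread between these libraries.

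Blood clots when a cascade of proteases, most of them made by hepatocytes, activates thrombin, which turns fibrinogen into fibrin. Other liver proteins hold the cascade in check or dissolve the clot as plasmin. Complement is a second cascade of plasma proteins: antibodies, sugars on microbes or slow spontaneous turnover lead to the cleavage of C3 and then of C5, after which C6, C7, C8 and C9 assemble into a pore in the target membrane. Hepatocytes are the main source of most of these proteins in plasma.

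Many messenger RNAs of the 2 cascades were higher after both treatments than after the sham operation, among them fibrinogen, prothrombin and C3, and the beta chain of complement C8 had the largest fold change. Levels are counts scaled to library size (CPM) by the trimmed mean of M-values (TMM), and a gene was called higher or lower where edgeR's quasi-likelihood test gave an adjusted p under 0.05 over all tested genes. In RYGB against Sham livers, 24 of the 40 genes (60%) were called higher and 0 lower, where 12.7% of all tested genes were called higher and 11% lower. In WM against Sham livers, 20 genes (50%) were called higher and 2, Pros1 and C9, lower, where 16.5% of all tested genes were called higher and 15% lower. In RYGB against WM livers, 2 genes (5%), Fgl1 and Hc, were called higher and 0 lower, where 1.06% of all tested genes were called higher and 0.434% lower. The median log2 fold change was 0.66 for the 40 genes and -0.0149 for all tested genes in RYGB against Sham livers. It was 0.46 and -0.00789 in WM against Sham livers, and 0.17 and -0.0159 in RYGB against WM livers. RYGB and WM livers were both set against the same Sham livers. The 20 genes called higher in WM livers were also called higher in RYGB livers, and 4 more, Cfi, Fgl1, Hc and Hrg, were called higher in RYGB livers but not in WM livers.

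**Figure D1:**
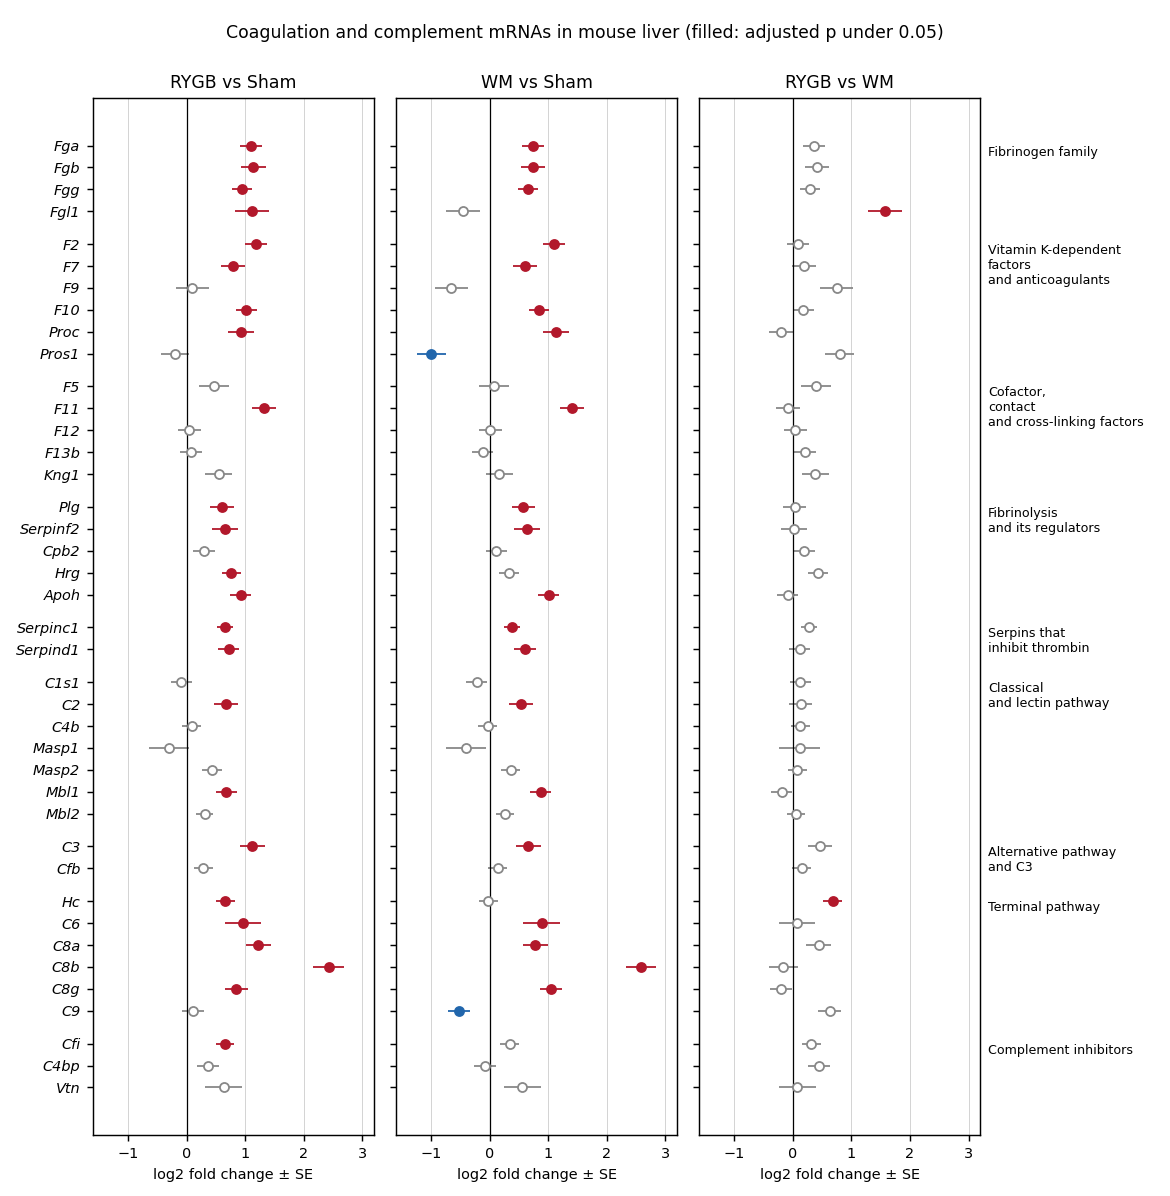
Log2 fold change ± SE of each of the 40 genes (rows, grouped by role) in RYGB against Sham, WM against Sham and RYGB against WM livers, 8 per group; filled points have an adjusted p under 0.05, red for higher and blue for lower. In RYGB against Sham livers 37 of 40 fold changes were above 0, in WM against Sham livers 30, and C8b stands farthest to the right in both.

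Libraries differed in several ways that bear on these counts. Totals were 14002193 to 19958019 counts in RYGB, 14208021 to 22766612 in WM and 13659647 to 17391377 in Sham libraries. TMM factors ran from 0.819 to 1.05 in RYGB, from 0.791 to 1.09 in WM and from 0.988 to 1.38 in Sham libraries. Scaled by library totals alone, the median fold change of all genes moved to -0.36 in RYGB against Sham and to -0.34 in WM against Sham livers, that of the 40 genes to 0.32 and 0.13, and the counts called higher were 13 and 8, with 0 and 3 called lower. With that scaling, 5.75% of all genes were called higher and 26.9% lower in RYGB, and 7.99% and 27.7% in WM against Sham livers. Calls lost that way were those of Fgl1, F7, Plg, Serpinf2, Serpinc1, Serpind1, C2, Mbl1, Hc, C6 and Cfi in RYGB livers and of Fga, Fgb, Fgg, F7, Plg, Serpinf2, Serpinc1, Serpind1, C2, C3, C6 and C8a in WM livers, and F9 was called lower in WM livers. Pancreatic acinar transcripts, summed over 9 of 10 markers without Cela1, reached 2262 CPM in RYGB 18, 2165 CPM in RYGB 19 and 1003 CPM in Sham 17 and were at most 19.9 CPM elsewhere. Cela1, the marker left out of that sum after its values were seen, was at 30.5, 57.5 and 356 CPM in RYGB, 66.7, 115 and 188 CPM in WM and 8.56, 11.3 and 119 CPM in Sham livers, and with a log2 fold change of 2.08 ± 0.55 (adjusted p = 0.00685) in RYGB and 2.29 ± 0.56 (adjusted p = 0.00238) in WM livers it was called higher in both. Without the 3 libraries named, 20 genes were called higher in RYGB and 18 in WM livers, where 9.76% and 14.7% of all genes were. The calls lost were those of Plg, Serpinf2, C2 and C6 in RYGB and of Serpinc1, C2 and C9 in WM livers. WM 25 stood apart from the other WM libraries, on the high side, in 9 of the 40 genes by Dixon's criterion. It was also the lowest WM library, though not apart by that criterion, for Fgl1, Pros1, F11, F13b, C1s1, C9, Cfi and C4bp. Without it, 14 of the 40 were called higher in WM livers, where 16.3% of all genes were. Longer transcripts were relatively more abundant in Sham libraries: the slope on log2 transcript length of a library's log2 levels, each taken relative to the gene's mean over all libraries, averaged -0.055 ± 0.049 in RYGB, -0.089 ± 0.074 in WM and 0.144 ± 0.046 in Sham libraries (SD, n = 8 each). The 40 genes have a median longest transcript of 2545 bases, against 3229 for the genes tested. After a correction for GC content and length, 24 were called higher in RYGB and 16 in WM livers, where 12.7% and 15.2% of all genes were. The calls of F7 and Mbl1 in RYGB and of F7, Plg, Serpinf2 and C2 in WM livers were lost. Calls of F5 and C4bp in RYGB against Sham and of Pros1 in RYGB against WM livers were gained.

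**Figure D2:**
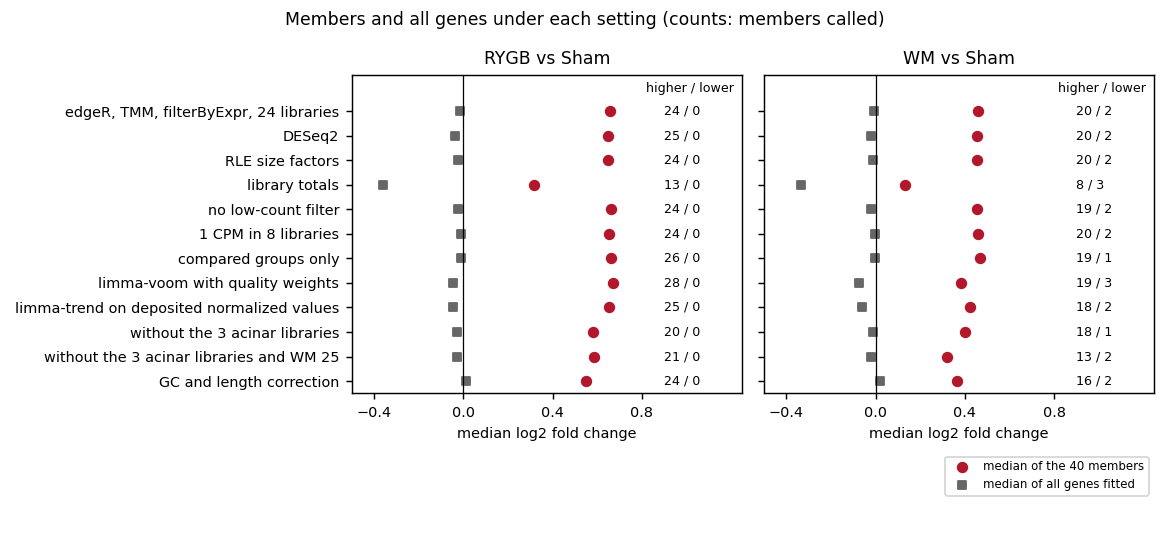
Median log2 fold change of the 40 genes (red circles) and of all genes fitted (grey squares) under each way of processing (rows), with the number of the 40 called higher and lower at the right of each panel. Scaling by library totals shifts every gene, and so both medians, to the left, and the counts fall to 13 in RYGB and 8 in WM livers. Under that scaling 5.75% of all genes were called higher in RYGB and 7.99% in WM against Sham livers.

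Markers of the liver's cell types also moved, and their part in these results was not tested. In bulk liver, fewer cells of a type and less RNA per cell cannot be told apart. Among all tested genes, 12.7% were called higher and 11% lower in RYGB, and 16.5% and 15% in WM against Sham livers. Of 7 hepatocyte markers, 6 were called higher in each treatment against Sham, and their summed level was 78227 to 132650 CPM in RYGB, 71419 to 125410 CPM in WM and 30653 to 69563 CPM in Sham livers. Alb alone had medians of 85769 CPM in RYGB, 55520 CPM in WM and 33582 CPM in Sham livers. Of 7 markers of Kupffer cells, the resident macrophages, 6 were called higher in RYGB and 5 in WM livers, with sums of 155 to 808 CPM in RYGB, 203 to 593 CPM in WM and 58.3 to 302 CPM in Sham livers. Of 6 markers of sinusoidal endothelium, 2 were called higher in RYGB and 4 in WM livers, with sums of 81.4 to 193 CPM in RYGB, 141 to 242 CPM in WM and 33.9 to 186 CPM in Sham livers. Of 6 stellate cell markers, 4 were called lower in RYGB and 5 in WM livers, and of 5 cholangiocyte markers 1 and 2. Their sums were 249 to 349 CPM in RYGB, 198 to 343 CPM in WM and 349 to 746 CPM in Sham livers for stellate cells and 31.7 to 50.6 CPM in RYGB, 21.3 to 37.3 CPM in WM and 44.8 to 101 CPM in Sham livers for cholangiocytes. Of the lymphocyte markers, 3 passed the filter on low counts and all 3 were called higher in each treatment, with sums of 20.4 to 227 CPM in RYGB, 5.81 to 224 CPM in WM and 3.19 to 21.1 CPM in Sham livers. Of 4 erythrocyte markers, 1 was called higher in RYGB and 4 in WM livers, with sums of 2418 to 4715 CPM in RYGB, 1196 to 8196 CPM in WM and 612 to 1984 CPM in Sham livers. Among the acinar markers, Cpa1, Cpb1, Try4, Cel and Clps were at 0 in more than 12 of the 24 libraries.

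Fibrinogen is built from 3 chains, encoded by Fga, Fgb and Fgg, which lie side by side on chromosome 3 (chr3:83007724-83015049, chr3:83026076-83033627 and chr3:83040141-83049863; GRCm38, GENCODE M21). All 3 were higher after both treatments, and no shift of Fga or of Fgg against Fgb passed a test. Fga against Fgg was not tested. Fga, the alpha chain, stood at 1537, 2014 and 2644 CPM in RYGB, 1319.5, 1469 and 2206 CPM in WM and 547, 872 and 1455 CPM in Sham livers, each given as the lowest, median and highest of 8 libraries. Every RYGB liver lay above every Sham liver, and WM livers overlapped with Sham. Its log2 fold change was 1.10 ± 0.19 (adjusted p = 9.79e-05) in RYGB against Sham and 0.74 ± 0.19 (adjusted p = 0.00316) in WM against Sham livers, each ± SE. Fgb, the beta chain, had 6239, 9802 and 12560 CPM in RYGB, 4813, 6572 and 10518 CPM in WM and 2448, 4198 and 6359 CPM in Sham livers. In 7 RYGB livers and 4 WM livers the level lay above the highest Sham liver. The change was 1.14 ± 0.21 (adjusted p = 2.05e-04) in RYGB and 0.73 ± 0.21 (adjusted p = 0.00785) in WM livers. For Fgg, the gamma chain, the levels were 1866, 2656 and 3116 CPM in RYGB, 1751, 2225 and 2733 CPM in WM and 953, 1266 and 2220.3 CPM in Sham livers, again with 7 RYGB and 4 WM livers above all Sham livers. Its fold change was 0.95 ± 0.17 (adjusted p = 1.39e-04) in RYGB and 0.65 ± 0.17 (adjusted p = 0.00349) in WM livers. Between RYGB and WM livers the 3 chains differed by 0.35, 0.41 and 0.29 on the log2 scale, and none passed the test (adjusted p = 0.495, 0.473 and 0.546).

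Ratios of the counts of 2 genes within a library do not depend on how libraries are scaled. A set of 10 such ratios was chosen after the levels had been seen and compared between groups by two-sided exact permutation tests on the log2 ratio, with Benjamini-Hochberg adjustment over 30 tests. The adjustment does not cover the choice of pairs, so that adjusted p-values of ratios, here and below, may be too small. Groups of 8 and 8 allow no p below 0.000155. No ratio was tested with a library left out. WM 25 held the lowest WM ratio of Fgl1 and of Fgg to Fgb, of Pros1 to Proc and of C9 and of Hc to C8a. It also held the highest WM ratio of C8b to C8g. Divided by the count of Fgb, that of Fga was 0.122, 0.248 and 0.305 in RYGB, 0.176, 0.242 and 0.303 in WM and 0.176, 0.226 and 0.324 in Sham livers (lowest, median and highest), and the groups overlapped over most of their range. The log2 difference was -0.023 ± 0.19 (adjusted p = 0.908) in RYGB and 0.05 ± 0.15 (adjusted p = 0.812) in WM against Sham livers by the exact test. For Fgg over Fgb it was -0.18 ± 0.17 (adjusted p = 0.463) and -0.043 ± 0.18 (adjusted p = 0.868) by the same exact test, so that no shift of either chain against Fgb was detectable with SEs of 0.15 to 0.19.

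The promoters of the fibrinogen chains are printed because these 3 genes were all called higher in both treatments. They are the 250 bases before the RefSeq start (GRCm38.p6), 5′ to 3′. A core motif of the hepatocyte factor HNF1 is in capitals (GTTAAT, or ATTAAC where it lies on the other strand). RefSeq's start of Fga lies 77 bases from GENCODE's.
Fga (chr3:83025903-83026152, plus strand): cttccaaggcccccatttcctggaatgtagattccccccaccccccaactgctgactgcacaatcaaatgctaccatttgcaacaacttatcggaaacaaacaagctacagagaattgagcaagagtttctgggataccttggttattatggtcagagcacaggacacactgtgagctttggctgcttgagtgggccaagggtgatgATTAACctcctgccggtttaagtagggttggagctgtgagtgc
Fgb (chr3:83049864-83050113, minus strand): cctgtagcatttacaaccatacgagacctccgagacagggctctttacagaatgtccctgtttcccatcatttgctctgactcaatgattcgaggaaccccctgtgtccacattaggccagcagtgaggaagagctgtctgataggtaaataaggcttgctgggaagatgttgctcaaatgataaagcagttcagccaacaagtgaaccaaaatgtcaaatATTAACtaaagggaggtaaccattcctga
Fgg (chr3:83007474-83007723, plus strand): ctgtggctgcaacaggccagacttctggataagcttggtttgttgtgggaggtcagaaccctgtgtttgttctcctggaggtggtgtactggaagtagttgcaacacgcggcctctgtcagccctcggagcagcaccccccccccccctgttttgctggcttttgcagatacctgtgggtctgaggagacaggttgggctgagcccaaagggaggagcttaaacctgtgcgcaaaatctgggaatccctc
Counted from the RefSeq start, the motif begins at position -43 in Fga and at -29 in Fgb, and these letters are not in the window of Fgg. RefSeq promoters were matched for 31 of the 40 genes. The HNF1 motif was found in 8 of the 31 (25.8%; C4bp, C8a, C8b, F13b, Fga, Fgb, Hc and Vtn), against 6.52% of 27025 promoters of the same length. A core element of nuclear receptors, TGACCT on either strand, was in 11 (35.5%), against 13.8% of all promoters. The IL-6 response element CTGGGAA was in 4 (12.9%; F9, Fgb, Fgg and Masp2), against 9.08%, and CCAAT was in 6 (19.4%), against 34.5%, each on either strand. No HNF1 motif overlapped another of these motifs.

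Fgl1, a fibrinogen-like protein that hepatocytes secrete and that binds LAG-3, an inhibitory receptor of T cells, differed between the treatments. Levels were 375, 708 and 1214 CPM in RYGB, 108, 229 and 576 CPM in WM and 264, 393 and 471 CPM in Sham livers. Of the RYGB livers, 7 stood above the highest Sham liver, and 6 of 8 RYGB livers above the highest WM liver. The log2 fold change was 1.12 ± 0.29 (adjusted p = 0.00559) in RYGB against Sham, -0.46 ± 0.29 (adjusted p = 0.233) in WM against Sham and 1.58 ± 0.29 (adjusted p = 0.00281) in RYGB against WM livers, so that the 2 treatments differed by a direct test while WM and Sham did not pass it. Relative to Fgb, Fgl1 counts were 0.0595, 0.0913 and 0.114 in RYGB, 0.0103, 0.0407 and 0.0659 in WM and 0.0633, 0.0781 and 0.153 in Sham livers. This ratio was lower in WM livers than in Sham livers, with a log2 difference of -1.40 ± 0.34 (adjusted p = 0.00186) and higher in RYGB than in WM livers by 1.29 ± 0.33 (adjusted p = 0.00333), both by the exact permutation test, and in RYGB against Sham livers the difference was -0.10 ± 0.21 (adjusted p = 0.753) by that exact test.

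**Figure D3:**
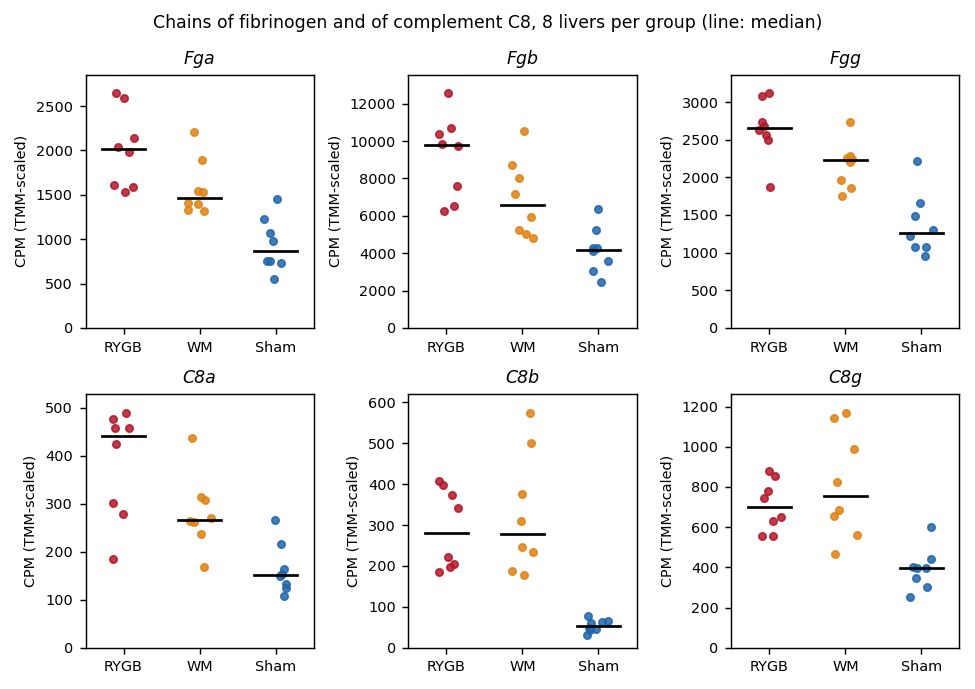
TMM-scaled CPM of the 3 fibrinogen chains (upper panels) and the 3 chains of complement C8 (lower panels) in each liver of the RYGB, WM and Sham groups, 8 per group, with a line at the median. For Fga and C8b every RYGB liver lies above every Sham liver, and for C8b every WM liver does too.

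Factors II, VII, IX and X and proteins C and S need vitamin K for the carboxylation that lets them bind calcium. Of these 6 genes, 4 were called higher in each treatment against Sham (F2, F7, F10 and Proc), and 1, Pros1, was called lower in WM livers. That is 66.7% called higher, against 12.7% of all tested genes in RYGB and 16.5% in WM livers. F2, prothrombin, stood at 1186, 1647 and 1843 CPM in RYGB, 999, 1504 and 2452 CPM in WM and 534, 627 and 1067 CPM in Sham livers. All RYGB livers and 6 of 8 WM livers lay above the highest Sham liver. Its log2 fold change was 1.18 ± 0.19 (adjusted p = 3.52e-05) in RYGB and 1.10 ± 0.19 (adjusted p = 5.50e-05) in WM livers. F10, which cuts prothrombin, had 499, 611 and 766 CPM in RYGB, 313, 536 and 819 CPM in WM and 235, 312 and 364 CPM in Sham livers. Values of 8 RYGB and 6 WM livers lay above all Sham livers. The change was 1.02 ± 0.18 (adjusted p = 1.04e-04) in RYGB and 0.84 ± 0.18 (adjusted p = 5.58e-04) in WM livers. F7, which starts clotting with tissue factor and lies 1498 bases before F10 on the same strand of chromosome 8 (chr8:13026034-13035809 and chr8:13037308-13056676), was at 53.0, 97.4 and 144 CPM in RYGB, 50.7, 83.9 and 133 CPM in WM and 43.5, 58.0 and 75.2 CPM in Sham livers. In 5 livers of each treatment the level lay above all Sham livers. It changed by 0.79 ± 0.20 (adjusted p = 0.00482) in RYGB and 0.60 ± 0.20 (adjusted p = 0.0233) in WM livers, and the call in WM livers was lost without WM 25, where the log2 fold change was 0.48.

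Proc encodes protein C, the protease that cuts activated factors V and VIII, and Pros1 encodes protein S, its cofactor. Proc was called higher in both treatments, and Pros1 was called lower in WM livers only. Proc stood at 148, 272 and 376 CPM in RYGB, 187, 265 and 605 CPM in WM and 102, 137 and 179.7 CPM in Sham livers, and every WM liver and 6 RYGB livers lay above all Sham livers. Its change was 0.93 ± 0.22 (adjusted p = 0.00233) in RYGB and 1.13 ± 0.22 (adjusted p = 2.38e-04) in WM livers. Pros1 was at 45.4, 63.5 and 124 CPM in RYGB, 15.5, 42.0 and 76.6 CPM in WM and 51.1, 79.5 and 114 CPM in Sham livers. All 8 WM livers were below the Sham median, and the groups overlapped. Its log2 fold change was -0.19 ± 0.24 (adjusted p = 0.600) in RYGB and -0.99 ± 0.24 (adjusted p = 0.00255) in WM livers, and 0.80 ± 0.24 (adjusted p = 0.105) between RYGB and WM livers, where it was called after the correction for GC content and length, at 0.78 (adjusted p = 0.0182). Divided by those of Proc, Pros1 counts were 0.137, 0.234 and 0.626 in RYGB, 0.0256, 0.147 and 0.315 in WM and 0.284, 0.595 and 1.01 in Sham livers. That ratio was lower in both treatments than in Sham, with log2 differences of -1.12 ± 0.38 (adjusted p = 0.0312) in RYGB and -2.16 ± 0.44 (adjusted p = 0.00186) in WM livers by the exact permutation test. Pros1 is also made by endothelium and megakaryocytes.

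F9, the protease missing in haemophilia B, which activates factor X, was called in no comparison of the edgeR fit of all 24 libraries with TMM scaling. It stood at 119, 293 and 376 CPM in RYGB, 81.6, 165 and 238 CPM in WM and 86.9, 252 and 371 CPM in Sham livers, and all WM livers lay below the Sham median while RYGB and Sham livers covered much the same range. The fold change was 0.094 ± 0.28 (adjusted p = 0.843) in RYGB and -0.66 ± 0.28 (adjusted p = 0.0732) in WM against Sham livers. It was called lower in WM livers with library totals, at -0.92 (adjusted p = 0.0101), and with limma-voom and quality weights, at -0.81 (adjusted p = 0.00921). Against F10, the protein it activates, F9 counts were 0.169, 0.464 and 0.649 in RYGB, 0.132, 0.254 and 0.654 in WM and 0.369, 0.870 and 1.02 in Sham livers. The log2 ratio differed by -0.90 ± 0.30 (adjusted p = 0.0206) in RYGB and -1.42 ± 0.34 (adjusted p = 0.00513) in WM livers by the exact permutation test.

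Cofactors, contact factors and the cross-linking factor held 1 called gene of 5, F11, which was higher in each treatment. That share of 20% is near those of all tested genes, 12.7% in RYGB and 16.5% in WM livers. F11, the protease that activates factor IX, was at 11.8, 19.5 and 24.4 CPM in RYGB, 11.9, 20.0 and 31.0 CPM in WM and 5.49, 6.95 and 11.7 CPM in Sham livers. Every RYGB and every WM liver lay above every Sham liver. The change was 1.32 ± 0.20 (adjusted p = 2.75e-05) in RYGB and 1.40 ± 0.20 (adjusted p = 7.72e-06) in WM livers, and it was called under each of the 24 fits that left out a library and each of the 11 other alternatives. F12, which activates factor XI in the contact pathway, had log2 fold changes of 0.046 in RYGB and 0.0058 in WM livers (adjusted p = 0.892 and 0.986), with medians of 498, 412 and 478 CPM in RYGB, WM and Sham livers. Kng1, the kininogen that releases bradykinin and carries factor XI and prekallikrein, showed 0.55 and 0.16 (adjusted p = 0.0903 and 0.631). Kng2, a near-identical copy whose reads may be split with it, gave 0.46 and 0.093 (adjusted p = 0.0672 and 0.732). F5, the cofactor of factor Xa, showed 0.46 and 0.07, and F13b, the carrier subunit of the fibrin cross-linking factor XIII, gave 0.079 and -0.12, with adjusted p = 0.193 and 0.860 for F5 and 0.800 and 0.651 for F13b. After the correction for GC content and length F5 was called higher in RYGB livers, at 0.76 (adjusted p = 0.0414), and Kng1 was called there with limma-voom, at 0.51 (adjusted p = 0.0148).

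Fibrinolysis and its regulators included 4 of 5 genes called higher in RYGB livers (Plg, Serpinf2, Hrg and Apoh) and 3 of 5 in WM livers (all of these but Hrg). These are 80% and 60%, against 12.7% and 16.5% of all tested genes. Plg, plasminogen, the precursor of the clot-dissolving protease plasmin, stood at 848, 1649 and 2227 CPM in RYGB, 944, 1348 and 2788 CPM in WM and 916, 1017 and 1183 CPM in Sham livers. Values of 7 RYGB and 6 WM livers lay above the highest Sham liver. Its log2 fold change was 0.60 ± 0.20 (adjusted p = 0.0251) in RYGB and 0.57 ± 0.20 (adjusted p = 0.0275) in WM livers. Serpinf2, antiplasmin, which blocks plasmin, was at 319.9, 518 and 909.9 CPM in RYGB, 373, 465 and 1150 CPM in WM and 268, 356 and 460 CPM in Sham livers, and 4 livers of each treatment lay above all Sham livers. The change was 0.66 ± 0.22 (adjusted p = 0.0298) in RYGB and 0.63 ± 0.22 (adjusted p = 0.0287) in WM livers. The call of Plg in RYGB livers was lost without RYGB 18 and that in WM livers without Sham 16, WM 9 or WM 25. For Serpinf2, the call in RYGB livers was lost without Sham 2, 6 or 16 or RYGB 18, 19 or 29, and that in WM livers without Sham 6, Sham 16 or WM 25. With 1 library left out, the lowest log2 fold changes were 0.52 in RYGB and 0.39 in WM livers for Plg and 0.52 in RYGB and 0.39 in WM livers for Serpinf2. In WM livers the call of Plg was also lost with limma-trend and that of Serpinf2 with limma-voom. Apoh, beta-2-glycoprotein I, which binds phospholipids, had 1148, 1532 and 2031 CPM in RYGB, 1223, 1661 and 2523 CPM in WM and 573, 817 and 1310.2 CPM in Sham livers. In 7 livers of each treatment the level lay above all Sham livers. It changed by 0.92 ± 0.18 (adjusted p = 4.86e-04) in RYGB and 1.01 ± 0.18 (adjusted p = 1.21e-04) in WM livers. Hrg, histidine-rich glycoprotein, which binds plasminogen and heparin, was at 346, 571 and 707 CPM in RYGB, 267, 390.1 and 544 CPM in WM and 237, 306 and 449.6 CPM in Sham livers, and 7 RYGB and 3 WM livers exceeded the highest Sham liver. The log2 fold change was 0.77 ± 0.17 (adjusted p = 0.00151) in RYGB, 0.33 ± 0.17 (adjusted p = 0.135) in WM and 0.43 ± 0.17 (adjusted p = 0.278) between RYGB and WM livers, so that a difference between the treatments was not shown. Kng1, the neighbour of Hrg on chromosome 16, was called in neither. Cpb2, a carboxypeptidase that slows fibrinolysis, had log2 fold changes of 0.30 in RYGB and 0.11 in WM livers (adjusted p = 0.250 and 0.675).

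Both serpins that inhibit thrombin were called higher in both treatments. Of all tested genes, 12.7% were called higher in RYGB and 16.5% in WM livers. Serpinc1, antithrombin, was at 1742, 2018 and 2729 CPM in RYGB, 1438, 1624 and 2348 CPM in WM and 1186, 1326 and 1504 CPM in Sham livers. Values of all 8 RYGB livers and 6 WM livers lay above all Sham livers. Its change was 0.66 ± 0.14 (adjusted p = 9.95e-04) in RYGB and 0.38 ± 0.14 (adjusted p = 0.0375) in WM livers, and the call in WM livers was lost when any 1 of 9 libraries was left out (Sham 2, 3, 5, 14, 16 and 17 and WM 25, 27 and 30), with 0.31 as the lowest log2 fold change, and with the 2 compared groups alone or limma-trend. Serpind1, heparin cofactor II, had 223, 412 and 452 CPM in RYGB, 224, 331 and 560.1 CPM in WM and 171, 220.1 and 269.6 CPM in Sham livers. In 7 RYGB and 6 WM livers the level lay above all Sham livers. It changed by 0.72 ± 0.18 (adjusted p = 0.00437) in RYGB and 0.60 ± 0.18 (adjusted p = 0.0115) in WM livers.

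In the classical and lectin pathways of complement, 2 of 7 genes, C2 and Mbl1, were called higher in each treatment. This is 28.6%, against 12.7% of all tested genes in RYGB and 16.5% in WM livers. Mbl1, one of the mouse mannose-binding lectins that start the lectin pathway on microbial sugars, stood at 171, 213 and 257 CPM in RYGB, 166, 224 and 362 CPM in WM and 90.7, 134 and 177 CPM in Sham livers. Values of 7 livers of each treatment lay above all Sham livers. The change was 0.68 ± 0.18 (adjusted p = 0.00581) in RYGB and 0.87 ± 0.18 (adjusted p = 4.55e-04) in WM livers. C2, the protease of the C3 convertase of these pathways, was at 27.3, 48.8 and 70.4 CPM in RYGB, 30.6, 41.6 and 66.3 CPM in WM and 19.6, 32.8 and 44.0 CPM in Sham livers, and 5 RYGB and 3 WM livers exceeded all Sham livers. It changed by 0.67 ± 0.20 (adjusted p = 0.0160) in RYGB and 0.54 ± 0.20 (adjusted p = 0.0432) in WM livers, the call in RYGB livers being lost without the 3 acinar libraries and that in WM livers when any 1 of 9 libraries was left out (Sham 6, 16, 17 and 23 and WM 1, 9, 13, 20 and 25), with 0.43 as the lowest log2 fold change. Mbl2, the other such lectin, had log2 fold changes of 0.31 and 0.26 (adjusted p = 0.148 and 0.205) in RYGB and WM livers. Masp2, the protease that the lectins carry, showed 0.43 and 0.36 (adjusted p = 0.0570 and 0.101). In RYGB livers Masp2 passed with DESeq2, at 0.43 (adjusted p = 0.0464). Masp1, a second such protease, lay between 0.646 and 5.34 CPM in all 24 libraries and had log2 fold changes of -0.29 and -0.41 (adjusted p = 0.569 and 0.382). C1s1, the protease of the first component, showed -0.094 and -0.22 (adjusted p = 0.745 and 0.352). C4b, the fourth component, gave 0.089 and -0.036 (adjusted p = 0.735 and 0.888). Its near-identical copy C4a was called lower in both treatments, at 5.44, 5.98 and 7.43 CPM in RYGB, 6.65, 8.00 and 14.4 CPM in WM and 11.8, 14.7 and 19.0 CPM in Sham livers, with changes of -1.20 ± 0.17 (adjusted p = 8.34e-06) and -0.71 ± 0.17 (adjusted p = 0.00185). Reads of the 2 copies may be split between them, so that both values are uncertain.

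C3, on which all activation pathways converge, was called higher in both treatments. It stood at 2188, 3812 and 4897 CPM in RYGB, 1529, 2395 and 4928 CPM in WM and 1222, 1706 and 1989 CPM in Sham livers. Every RYGB liver and 6 WM livers lay above all Sham livers, and the other 2 WM livers were below the Sham median. Its change was 1.12 ± 0.21 (adjusted p = 2.56e-04) in RYGB and 0.66 ± 0.21 (adjusted p = 0.0162) in WM livers, and the call in WM livers was lost without WM 25, where the log2 fold change was 0.48. Cfb, the protease of the alternative pathway, had log2 fold changes of 0.29 and 0.13 (adjusted p = 0.209 and 0.563) in RYGB and WM livers, and C2, called higher in both, lies 85 bases from it on the same strand of chromosome 17 (chr17:34856374-34862518 and chr17:34862604-34898265).

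Among the 6 genes of the terminal pathway, 5 were called higher in RYGB livers and 4 in WM livers, and C9 was called lower in WM livers. The shares called higher are 83.3% and 66.7%, against 12.7% and 16.5% of all tested genes. C8b, the beta chain of C8, had the largest fold change of the 40 genes in both comparisons with Sham. It stood at 184, 281 and 408 CPM in RYGB, 178, 278 and 574 CPM in WM and 31.8, 53.4 and 76.5 CPM in Sham livers. Every RYGB liver and every WM liver lay above every Sham liver, and the RYGB and WM livers covered overlapping ranges. The ratio of means was 5.36 in RYGB and 6.00 in WM against Sham livers, and the log2 fold change was 2.42 ± 0.26 (adjusted p = 1.26e-07) and 2.59 ± 0.26 (adjusted p = 3.32e-08). Between RYGB and WM livers it was -0.16 ± 0.24 (adjusted p = 0.902). C8b was called higher in both treatments in all 24 fits that left out a library, with log2 fold changes of 2.34 to 2.51 in RYGB and 2.42 to 2.68 in WM livers, and under all 11 other alternatives.

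The other chains of C8 changed less. C8a, the alpha chain, whose gene lies 11130 bases from C8b on chromosome 4 on the opposite strand (chr4:104766317-104804548 and chr4:104815679-104876398), had 186, 441 and 489 CPM in RYGB, 168, 266 and 437 CPM in WM and 108, 152 and 266 CPM in Sham livers. In 7 RYGB and 4 WM livers the level lay above all Sham livers. It changed by 1.22 ± 0.21 (adjusted p = 1.24e-04) in RYGB and 0.78 ± 0.21 (adjusted p = 0.00597) in WM livers. C8g, the gamma chain, a lipocalin encoded on chromosome 2 (chr2:25498651-25501719), had 554, 700 and 879 CPM in RYGB, 467, 757 and 1167 CPM in WM and 253, 398 and 603 CPM in Sham livers. Values of 6 livers of each treatment lay above all Sham livers. The change was 0.85 ± 0.19 (adjusted p = 0.00208) in RYGB and 1.05 ± 0.20 (adjusted p = 1.68e-04) in WM livers. Divided by those of C8a, C8b counts were 0.430, 0.867 and 1.43 in RYGB, 0.428, 1.20 and 1.90 in WM and 0.250, 0.330 and 0.452 in Sham livers. The highest Sham liver lay within the lower end of both treated groups. The log2 ratio was higher by 1.18 ± 0.26 (adjusted p = 0.00233) in RYGB and 1.72 ± 0.27 (adjusted p = 0.00186) in WM livers by the exact permutation test. Against C8g, the ratio was 0.246, 0.418 and 0.589 in RYGB, 0.201, 0.440 and 0.581 in WM and 0.0723, 0.147 and 0.263 in Sham livers, and it was higher by 1.53 ± 0.26 (adjusted p = 0.00186) and 1.49 ± 0.28 (adjusted p = 0.00186) by the exact test. C8a over C8g did not pass the exact test in any comparison, with differences of 0.34 ± 0.35 (adjusted p = 0.463) in RYGB and -0.23 ± 0.38 (adjusted p = 0.695) in WM against Sham livers.

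The promoters of the C8 chains are printed beside this result because C8b moved apart from its neighbour C8a and from C8g. They are the 250 bases before the RefSeq start (GRCm38.p6), with the HNF1 motif in capitals as above. Where RefSeq lists a pair of starts, as for C8g, the first was used.
C8a (chr4:104876399-104876648, minus strand): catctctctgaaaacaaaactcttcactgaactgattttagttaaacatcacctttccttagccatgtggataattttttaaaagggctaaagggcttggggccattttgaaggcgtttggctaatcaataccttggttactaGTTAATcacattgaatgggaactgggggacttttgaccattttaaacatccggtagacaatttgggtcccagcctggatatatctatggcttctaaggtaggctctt
C8b (chr4:104766067-104766316, plus strand): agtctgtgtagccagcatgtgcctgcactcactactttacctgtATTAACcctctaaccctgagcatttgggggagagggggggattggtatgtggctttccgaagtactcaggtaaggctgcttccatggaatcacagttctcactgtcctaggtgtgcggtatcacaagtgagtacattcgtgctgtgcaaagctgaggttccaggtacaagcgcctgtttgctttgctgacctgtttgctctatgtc
C8g (chr2:25501720-25501969, minus strand): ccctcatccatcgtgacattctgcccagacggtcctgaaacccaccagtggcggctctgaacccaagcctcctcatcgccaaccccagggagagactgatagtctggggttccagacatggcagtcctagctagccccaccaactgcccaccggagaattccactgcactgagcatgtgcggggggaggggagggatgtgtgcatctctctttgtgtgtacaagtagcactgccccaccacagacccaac
Counted from the RefSeq start, the motif begins at position -107 in C8a and at -206 in C8b, and these letters are not in the window of C8g.

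**Figure D4:**
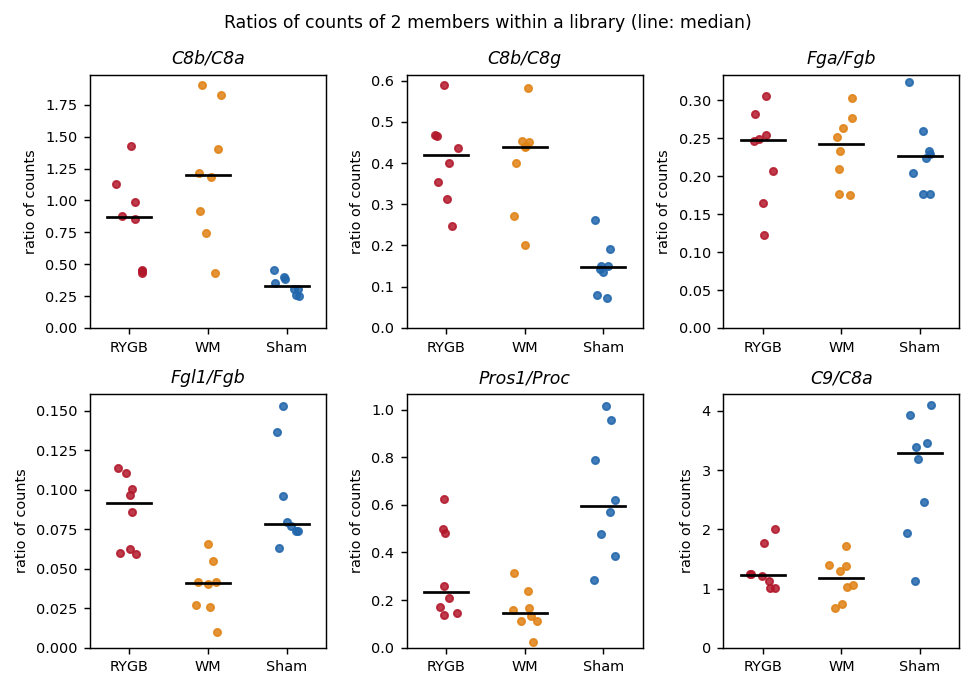
Ratio of the raw counts of 2 genes within each library (vertical axis, no unit) for RYGB, WM and Sham livers, 8 per group, with a line at the median. C8b against C8a and C8g lies higher in both treatments than in Sham, Fga over Fgb covers much the same range in the 3 groups, Fgl1 lies lower against Fgb in WM livers, and Pros1 against Proc and C9 against C8a lie lower in both treatments than in Sham.

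Hc, which encodes complement C5, differed between the 2 treatments. It stood at 438, 563 and 708 CPM in RYGB, 258, 336 and 520 CPM in WM and 288, 352 and 469.6 CPM in Sham livers. In 6 RYGB livers the level lay above all WM livers and above all Sham livers. WM and Sham livers covered nearly the same range. The log2 fold change was 0.66 ± 0.16 (adjusted p = 0.00378) in RYGB against Sham, -0.023 ± 0.16 (adjusted p = 0.929) in WM against Sham and 0.68 ± 0.16 (adjusted p = 0.0235) in RYGB against WM livers. That last call was lost when WM 7, RYGB 10 or RYGB 22 was left out, with 0.63 as the lowest log2 fold change, and with library totals or the 2 compared groups alone. C9, the pore-forming last component, was at 282, 532 and 569.8 CPM in RYGB, 211, 324 and 462 CPM in WM and 257, 508 and 534 CPM in Sham livers. All WM livers were below the Sham median, and RYGB and Sham livers covered much the same range. Log2 fold changes were 0.11 ± 0.19 (adjusted p = 0.723) in RYGB and -0.52 ± 0.19 (adjusted p = 0.0368) in WM against Sham livers, the call in WM livers being lost when any 1 of 8 libraries was left out (Sham 5, 14, 16, 17 and 23 and WM 20, 25 and 30; weakest log2 fold change -0.45) and without the 3 acinar libraries or with the 2 compared groups alone. Between RYGB and WM livers it was 0.63 ± 0.19 (adjusted p = 0.103). Against C8a, C9 counts were 1.00, 1.23 and 2.00 in RYGB, 0.670, 1.18 and 1.72 in WM and 1.13, 3.29 and 4.11 in Sham livers. That ratio was lower in both treatments, with log2 differences of -1.09 ± 0.26 (adjusted p = 0.00636) in RYGB and -1.31 ± 0.28 (adjusted p = 0.00414) in WM livers by the exact permutation test. Hc over C8a was also lower in both, with log2 differences of -0.56 ± 0.21 (adjusted p = 0.0400) and -0.84 ± 0.17 (adjusted p = 0.00350) by the exact test. C6, which joins C5b first, was at 90.0, 117 and 299 CPM in RYGB, 73.7, 119.8 and 308 CPM in WM and 26.2, 72.2 and 144 CPM in Sham livers, and 3 RYGB and 2 WM livers exceeded all Sham livers. It changed by 0.96 ± 0.31 (adjusted p = 0.0235) in RYGB and 0.88 ± 0.31 (adjusted p = 0.0286) in WM livers. The call in RYGB livers was lost without RYGB 18, where the log2 fold change was 0.72, and that in WM livers without Sham 2, Sham 17, WM 1 or WM 25, with 0.61 as the lowest log2 fold change, and with limma-voom.

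**Figure D5:**
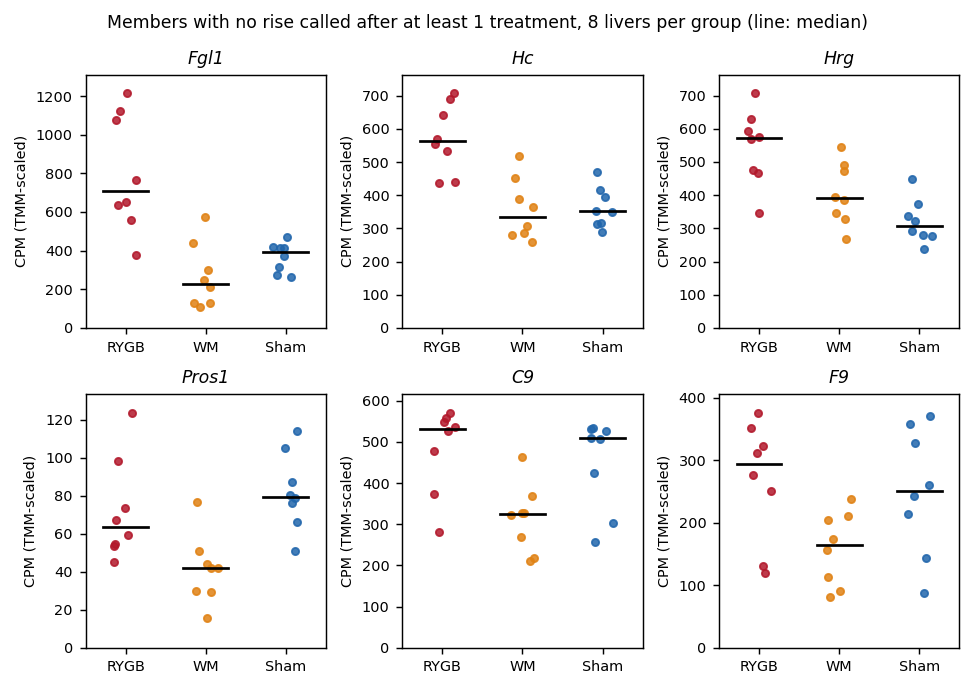
TMM-scaled CPM of 6 genes that were not called higher in 1 or both treatments, in each liver of the RYGB, WM and Sham groups, 8 per group, with a line at the median. Fgl1 and Hc are highest in RYGB livers, and Pros1, C9 and F9 have their lowest medians in WM livers.

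Of the complement inhibitors, 1 of 3, Cfi, was called higher in RYGB livers and 0 in WM livers. These are 33.3% and 0%, against 12.7% and 16.5% of all tested genes. Cfi, factor I, the protease that inactivates C3b and C4b, was at 309, 341 and 495 CPM in RYGB, 194, 311 and 361 CPM in WM and 172, 226 and 334 CPM in Sham livers. Values of 6 RYGB and 3 WM livers lay above all Sham livers. Log2 fold changes were 0.66 ± 0.16 (adjusted p = 0.00338) in RYGB, 0.34 ± 0.16 (adjusted p = 0.101) in WM and 0.31 ± 0.16 (adjusted p = 0.473) between RYGB and WM livers. C4bp, a cofactor of factor I for C4b, had log2 fold changes of 0.37 and -0.078 (adjusted p = 0.158 and 0.785) in RYGB and WM livers. In RYGB livers C4bp was called higher after the correction for GC content and length, at 0.67 (adjusted p = 0.00140), and with limma-voom, at 0.45 (adjusted p = 0.0208). Vtn, vitronectin, which holds back the terminal complex, gave 0.63 and 0.56 (adjusted p = 0.150 and 0.182), and within each group its levels spread widely, from 795 to 2440 CPM in RYGB, 738 to 2984 CPM in WM and 348 to 1560 CPM in Sham livers.

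Across the 40 genes, 14 were called in no comparison of the edgeR fit of all 24 libraries with TMM scaling and without GC and length correction. Some of them were called under alternatives. Livers of the 2 groups did not overlap at all for 7 genes in RYGB against Sham (Fga, F2, F10, F11, Serpinc1, C3 and C8b), where this held for 3.28% of all tested genes in the higher and 2.1% in the lower direction. It held for 3 in WM against Sham (Proc, F11 and C8b), where the shares were 3.15% and 2.68%. It held for 0 in RYGB against WM, where they were 0.282% and 0.0762%. None of the 40 lay lower without overlap. Together the 40 genes made up 2.61 to 4.10% of all counts of a library in RYGB (median 3.60%), 1.98 to 3.78% in WM (median 2.90%) and 2.09 to 3.25% in Sham livers (median 2.47%). Of the 40, 9 overlap another gene of the deposited table, mostly on the other strand, and whether counting used the strand is not given in the sources used here. They are Plg, Apoh, Serpinc1, Serpind1, C2, C8g, F5, Masp1 and Masp2.

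Genes of the same cascades outside the list were called in both directions. Of 22 other clotting and fibrinolysis genes tested, 5 were called higher and 3 lower in RYGB livers, and 3 higher and 4 lower in WM livers. These are 22.7% higher and 13.6% lower in RYGB and 13.6% higher and 18.2% lower in WM livers, against 12.7% and 11% of all tested genes in RYGB and 16.5% and 15% in WM livers, so that the shares in WM livers and the lower share in RYGB livers lie near those of all genes. Serpina10, the liver's inhibitor of factors Xa and XIa, stood at 221, 275 and 337 CPM in RYGB, 184, 265 and 335 CPM in WM and 94.7, 166 and 188 CPM in Sham livers, and it changed by 0.90 ± 0.17 (adjusted p = 3.05e-04) in RYGB and 0.82 ± 0.17 (adjusted p = 5.42e-04) in WM livers. Anxa2, annexin A2, a receptor for plasminogen and its activator on many cell types, was at 9.18, 15.6 and 25.7 CPM in RYGB, 4.18, 9.27 and 15.7 CPM in WM and 44.4, 83.7 and 138 CPM in Sham livers, and every liver of both treatments lay below every Sham liver. It changed by -2.40 ± 0.30 (adjusted p = 1.63e-06) in RYGB and -3.10 ± 0.31 (adjusted p = 3.32e-08) in WM livers. Of 29 other complement genes, 6 were called higher and 1 lower in RYGB livers, and 5 higher and 2 lower in WM livers, which is 20.7% and 3.45% in RYGB and 17.2% and 6.9% in WM livers. All tested genes stood at 12.7% and 11% in RYGB and 16.5% and 15% in WM livers. The higher share in WM livers thus lies near that of all genes. Fcna, ficolin A, a lectin pathway starter made by macrophages, was at 19.8, 37.7 and 54.6 CPM in RYGB, 22.4, 31.7 and 57.5 CPM in WM and 3.34, 5.88 and 11.1 CPM in Sham livers, with changes of 2.54 ± 0.26 (adjusted p = 9.34e-08) and 2.40 ± 0.26 (adjusted p = 1.20e-07). Kupffer cell markers were also called higher, as given above, and their part in this was not tested. Vsig4, called higher in both treatments, and C1qa, called in neither, stand in both the Kupffer cell and the complement list. Cfd, factor D, which cuts factor B and is made mainly by fat cells, was the gene of this list called in RYGB against WM livers, at 0.314, 31.3 and 70.4 CPM in RYGB, 0.0692, 5.59 and 11.4 CPM in WM and 2.99, 9.08 and 14.8 CPM in Sham livers, with a change of 2.67 ± 0.64 (adjusted p = 0.0230). Against Sham livers Cfd changed by 1.82 ± 0.61 (adjusted p = 0.0295) in RYGB and -0.86 ± 0.61 (adjusted p = 0.296) in WM livers.

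Vitamin K must be recycled for the carboxylation of clotting factors, and 2 of 15 genes of that cycle and of the factors' secretion were called higher in each treatment, with 1 called lower in RYGB and 3 in WM livers. At 13.3% higher in each, and 6.67% lower in RYGB and 20% lower in WM livers, these shares are near those of all tested genes and say nothing particular of the list. Vkorc1, the reductase that warfarin blocks, stood at 184, 281 and 375 CPM in RYGB, 227, 295 and 519 CPM in WM and 85.8, 162 and 248 CPM in Sham livers, and changed by 0.85 ± 0.21 (adjusted p = 0.00321) in RYGB and 1.06 ± 0.21 (adjusted p = 2.85e-04) in WM livers. Cyp4f14, a cytochrome P450 of the family whose human members break vitamin K down, was at 176, 234 and 297 CPM in RYGB, 154, 236 and 282 CPM in WM and 42.1, 67.8 and 100.1 CPM in Sham livers. In every treated liver the level lay above every Sham liver. It changed by 1.72 ± 0.18 (adjusted p = 9.10e-08) in RYGB and 1.75 ± 0.18 (adjusted p = 3.99e-08) in WM livers. Nqo1, a quinone reductase, was called lower, with log2 fold changes of -0.75 ± 0.21 (adjusted p = 0.0110) in RYGB and -1.33 ± 0.22 (adjusted p = 3.32e-05) in WM livers. Among 21 regulators of these genes in hepatocytes, 4 were called higher and 3 lower in RYGB livers, and 6 higher and 4 lower in WM livers, which is 19% and 14.3% in RYGB and 28.6% and 19% in WM livers. All tested genes stood at 12.7% and 11% in RYGB and 16.5% and 15% in WM livers. Il6st, the signalling receptor chain for IL-6, was at 56.0, 103 and 145 CPM in RYGB, 87.3, 99.0 and 125 CPM in WM and 156, 194 and 259 CPM in Sham livers, and changed by -0.90 ± 0.16 (adjusted p = 1.15e-04) and -0.93 ± 0.16 (adjusted p = 4.83e-05). Esr1, the estrogen receptor, was at 5.50, 11.0 and 15.6 CPM in RYGB, 2.19, 5.38 and 13.2 CPM in WM and 15.8, 25.7 and 47.0 CPM in Sham livers, with changes of -1.36 ± 0.29 (adjusted p = 0.00107) and -2.03 ± 0.30 (adjusted p = 8.08e-06).

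Other abundant plasma proteins of hepatocytes, 32 genes outside the 2 cascades, were mostly called higher where called: 17 were called higher and 1 lower in RYGB livers, and 16 higher and 1 lower in WM livers, with median log2 fold changes of 0.62 and 0.46. For the 40 coagulation and complement genes these medians were 0.66 and 0.46. Of the 32 genes, 53.1% were called higher and 3.1% lower in RYGB, and 50% and 3.1% in WM livers. All tested genes stood at 12.7% and 11% in RYGB and 16.5% and 15% in WM livers. Alb, Ttr, Apoa1 and Serpina1a are among the 32 and also among the hepatocyte markers above. Afm, afamin, a vitamin E carrier, stood at 254, 353 and 523 CPM in RYGB, 184, 273 and 410.4 CPM in WM and 112, 125 and 219 CPM in Sham livers, with changes of 1.41 ± 0.19 (adjusted p = 4.21e-06) and 1.04 ± 0.19 (adjusted p = 1.09e-04). Rbp4, the retinol carrier, was at 4498, 5458 and 6273 CPM in RYGB, 4316, 4915 and 7087 CPM in WM and 2376, 2786 and 3100.3 CPM in Sham livers, with changes of 0.95 ± 0.14 (adjusted p = 1.65e-05) and 0.93 ± 0.14 (adjusted p = 1.29e-05). No difference between the 2 lists was tested.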

How the data were processed

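The genes and lists were chosen with earlier results of these data known. Per the labels' protocols, liver RNA was made into QuantSeq 3′ libraries and read for 50 bp forward, which gives about 1 fragment per transcript whatever its length. The authors deposited raw counts of reads per Ensembl gene and a normalized signal, each count divided by a size factor per library. Versions listed in the submitters' processing notes are 1.34 for DESeq2 and 4.1.2 for R. How reads were aligned and counted, and on which build, is not given in the sources used here; positions are those of GENCODE M21 (GRCm38), by Ensembl ID.

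Counts were fitted in R 4.3.3 with edgeR 4.0.16: filterByExpr (13121 of 14995 genes), TMM scaling, 1 quasi-likelihood model over the 24 libraries without covariates (common coefficient of biological variation 0.398), Benjamini-Hochberg adjustment over all tested genes and a threshold of 0.05. The scripts were tested on simulated counts. Genes were given in full where called in at least 1 comparison, and of related lists at most the 2 called genes with the smallest p per comparison. Alternatives were DESeq2 1.42.0, limma 3.58.1 (voom with quality weights on counts, and limma-trend on log2 of the deposited signal plus 1), other scalings and filters, a correction for GC content and length (mgcv 1.9.3), and leaving out libraries. No library was a duplicate of another in its group: chi-square over its degrees of freedom was 24.9 to 540 for the 84 pairs within groups. Pairs across groups were not examined. Totals of 13659647 to 22766612 counts per library limit the precision of genes with few counts, such as Masp1.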

Additional observations from a re-analysis of the deposited data

Results flagged for a closer look

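Within each group of 8 libraries, the highest and the lowest value of each of the 40 genes was set against the others by Dixon's criterion. Of 120 groups examined, 12 held a library that stood apart. The criterion's nominal rate of about 1 in 20 assumes normally distributed values and independent groups. These genes share the same 24 libraries, so that 12 of 120 cannot be read against that rate. WM 25 was the library that stood apart in 9 of the 12, each time high: it had 2452 CPM of F2 (next highest WM liver 1569), 605 CPM of Proc (next 321), 1017 CPM of F12 (next 518), 2323 CPM of Kng1 (next 1188), 1150 CPM of Serpinf2 (next 568), 2523 CPM of Apoh (next 1775), 652 CPM of C4b (next 428), 281 CPM of Masp2 (next 173) and 2984 CPM of Vtn (next 1263). Its total was 16721787 counts, its TMM factor 0.791, its acinar sum without Cela1 0.227 CPM and its length slope -0.113. RYGB 18 was high in C6, at 299 CPM, against 168 CPM in the next RYGB liver. Sham 17 was low in C3, at 1222 CPM, against 1646 CPM in the next Sham liver. These are 2 of the 3 libraries with acinar transcripts. Sham 6 was high in Masp1, at 5.34 CPM, against 2.83 CPM in the next Sham liver.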

How the results depend on the processing

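No paired analysis was possible because the groups share no replicate numbers. In none of the alternatives did a called gene change sign. The share of all genes called higher also moved with the processing. In WM against Sham livers it was 7.99% with library totals, 19.5% with limma-voom and 15.9% with limma-trend. Without the 3 acinar libraries and WM 25 it was 15% there. In RYGB against Sham livers it was 5.75% with library totals. In RYGB against WM livers it was 0.899% with library totals, 0.77% with the compared groups alone and 1.52% with limma-voom. The share called lower in WM against Sham livers was 27.7% with library totals and 14.5% with the compared groups alone. Without the 3 acinar libraries that share was 12.7%, and with limma-voom 21.3%. Scaled by library totals, 13 genes were called higher in RYGB against Sham (Fga, Fgb, Fgg, F2, F10, Proc, F11, Hrg, Apoh, C3, C8a, C8b and C8g), 8 higher and 3 lower (Pros1, C9 and F9) in WM against Sham (higher F2, F10, Proc, F11, Apoh, Mbl1, C8b and C8g) and 1 in RYGB against WM livers (Fgl1). With the compared groups alone, 1 was called lower in WM livers and 1 higher in RYGB against WM livers. Without the 3 acinar libraries, 1 was called lower in WM livers, and without these and WM 25, an alternative chosen after seeing the data, 13 were called higher there (F7, Plg, Serpinf2, Serpinc1, Serpind1, C2, C3 and C6 lost, with C9 among the lower ones, and Cfi gained as higher and F9 as lower); Plg, Serpinf2 and C6 were lost in RYGB against Sham livers. With limma-voom and quality weights, 4 were called higher in RYGB against WM livers, C3 and C9 being gained; it also gained Kng1, Masp2, Mbl2 and C4bp in RYGB and Cfi (higher) and F9 (lower) in WM against Sham livers, where it made 3 lower calls and lost Serpinf2 and C6. Limma-trend gained Masp2 in RYGB livers and lost Plg and Serpinc1 in WM livers, with 18 called higher there. DESeq2 gained Masp2 in RYGB against Sham and C9 in RYGB against WM livers and lost none. The compared groups alone gained Kng1 and Masp2 in RYGB livers and lost Serpinc1 and C9 in WM livers and Hc in RYGB against WM livers. C2 in WM livers was lost without the filter on low counts. Leaving out each library in turn gave 21 to 26 genes higher in RYGB against Sham, 14 to 20 higher (14 without WM 25) and 1 to 4 lower in WM against Sham, and 1 to 3 higher in RYGB against WM livers. In those fits 11% to 13.8% of all genes were called higher in RYGB and 14.7% to 17% in WM against Sham livers. Of all genes, 12.2% to 15.4% were called lower in WM against Sham and 0.805% to 1.35% higher in RYGB against WM livers. With the length and GC correction, calls were lost for F7 and Mbl1 in RYGB livers and for F7, Plg, Serpinf2 and C2 in WM livers, and gained for F5 and C4bp in RYGB against Sham and for Pros1 in RYGB against WM livers. RLE size factors and the filter of 1 CPM in 8 libraries changed no call. The causes were not tested.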
